A study of Mus musculus with 96 samples.

Results

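Txnip and the alpha-arrestins Arrdc1, Arrdc2, Arrdc3 and Arrdc4 are 5 of the 56748 genes counted in libraries of mouse liver, skeletal muscle and cerebral cortex. They were chosen by name and from their CPM (counts of a gene for every 1000000 counts of its library) under both diets in these same libraries. Their diet differences are therefore given as a description, with standard errors and no p-values. Where members are counted or named as called at a p threshold, nothing is read from those calls. Alpha-arrestins share the arrestin fold with the beta-arrestins and work as adaptors: short proline-rich motifs in their tails recruit ubiquitin ligases of the NEDD4 family to membrane proteins, which are then taken up and sorted for breakdown. Txnip, the member that also binds thioredoxin, is known as a brake on glucose uptake in muscle and liver. The Txnip and Arrdc4 genes are classical targets of the glucose-sensing factors MondoA and ChREBP.

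Male C57BL/6 mice fed ad libitum (AL) were compared with male mice on intermittent fasting (IF), which had no food for 16 h of each day, from 6 weeks of age and over 4 months. The daily fast covered the whole dark phase, so IF mice had food only in the light. The paper describes sampling as at the end of the scheduled fast. Its sampling hours, in the morning, ran on past the hour at which that fast was due to end. Whether any IF mouse had eaten by then was not stated. These are mice 1 to 16, with AL mice 1 to 8 and IF mice 9 to 16. AL mice 25 to 32 and IF mice 33 to 40 carry a female label. Their age, their time on the diet and the length of the daily fast of the IF mice were not given in the sources used here. Sex, age and any other difference between the sets therefore cannot be told apart. Each tissue, diet and set had 8 libraries, 1 for each mouse. The 95 libraries used held 26097314 to 49838004 counts, with a median of 36132954.

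Library CAL1, the cortex of AL mouse 1, was left out because it went against its label. Xist, transcribed from the inactive X chromosome of females, was at 213 CPM in CAL1 and at 0 to 0.229 CPM in the other 15 cortex libraries of mice 1-16. The Y-linked genes Ddx3y, Kdm5d, Eif2s3y and Uty were all at 0 in CAL1, while Ddx3y was at 25.1 to 37.3 CPM in those 15 libraries. Among 31 cortex libraries CAL1 was closest to that of IF mouse 40, with a chi-square of 4.73 per gene, and next to that of IF mouse 39, with 10.8. Among pairs of the same tissue, diet and set, the closest differed by 9.08 per gene. Its own values were 15.8 CPM for Txnip, 24.4 for Arrdc2, 25.5 for Arrdc3, 6.07 for Arrdc4 and 17.01 for Arrdc1. With CAL1 included, the cortex of mice 1-16 had 294 genes called changed (adjusted p below 0.05, edgeR) in place of 1332, and the log2 fold change of IF over AL was 1.03 for Txnip, 0.35 for Arrdc3 and 1.14 for Arrdc2 in place of 1.08, 0.37 and 1.27.

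The other libraries went with their labels. Mice 25-40 had Xist at 36.8 CPM or more in every library, and Ddx3y at 0.0497 CPM or less. Hepatocyte markers led by Alb summed to a mean of 58914 CPM in the liver of AL mice 1-16 and to 0.689 CPM in their muscle. In their cortex the sum was 542 CPM on average and came almost wholly from Ttr, which the choroid plexus also expresses. It was uneven: AL mouse 4 had 3104 CPM, IF mice 11 and 14 had 3367 and 1553, IF mice 34 and 36 had 1545 and 4271, and the other cortex libraries used had at most 565. In muscle, myofibre markers led by Acta1 summed to 133258 CPM, and in cortex, neuron markers led by Snap25 summed to 6070 CPM.

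Txnip was the most abundant of the 5 genes in muscle. Its lowest, median and highest values there were 270, 374 and 460 CPM in AL mice 1-8, and 478, 523 and 658 CPM in IF mice 9-16. Every IF mouse was above every AL mouse, although the gap between the groups was narrow. The ratio of the means was 1.45, and the fitted log2 fold change was 0.46 ± 0.09 (SE, n = 8 and 8).

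In liver, where it was less abundant, Txnip differed more. AL mice ranged from 24.7 to 50.2 CPM with a median of 38.7, and IF mice from 102 to 173 CPM with a median of 149. The highest AL mouse had less than any IF mouse, and the log2 fold change was 1.84 ± 0.14. Cortex had the least Txnip, with 11.8, 12.5 and 15.03 CPM as lowest, median and highest of 7 AL mice and 18.0, 28.1 and 33.3 CPM in 8 IF mice. The cortex groups did not overlap either, and the log2 fold change was 1.08 ± 0.11. The same tissue order, muscle above liver above cortex, held in both diets and both sets of mice, with no overlap between neighbouring tissues, and under both scalings used.

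In mice 25-40 the 2 diets overlapped in all 3 tissues. Liver Txnip spanned 35.96 to 182 CPM in AL mice (median 62.3) and 43.5 to 225 CPM in IF mice (median 65.5). The highest were AL mice 29 and 30 (182 and 110 CPM) and IF mice 37, 40 and 33 (225, 132 and 132 CPM), and the medians were close. The ratio of the liver means, 1.22, was 0.984 without IF mouse 37 and 1.52 without AL mouse 29. Muscle medians were 453 CPM in AL and 394 CPM in IF mice, and cortex medians 18.0 and 18.3 CPM.

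Arrdc4, the closest relative of Txnip and like it a regulator of glucose transport, was low in every tissue. Its means lay between 5.51 CPM (cortex, IF mice 25-40) and 16.2 CPM (liver, IF mice 25-40). In mice 1-16 the ranges of AL and IF overlapped in each tissue, and the log2 fold changes were 0.20 ± 0.17 in liver, -0.10 ± 0.12 in muscle and 0.27 ± 0.11 in cortex. Liver Arrdc4 differed more between the sets of mice than between diets. AL mice 1-8 had 4.04 to 9.25 CPM and AL mice 25-32 had 10.6 to 18.9 CPM, with no overlap. In mice 25-40 liver also had more Arrdc4 than muscle, by ratios of means of 2.45 in AL and 2.87 in IF mice, with no overlap, and liver came first under both scalings. In mice 1-16 all neighbouring tissues overlapped, and in IF mice liver stood just above muscle in CPM but below it after scaling by TMM factors, which allow for the make-up of each library.

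Arrdc3 directs beta-adrenergic receptors and integrin beta 4 to endosomes, and in mice 1-16 it was higher under IF in muscle and lower in liver. In muscle of mice 1-16, AL animals had 11.7, 14.3 and 16.4 CPM as lowest, median and highest, and IF animals 39.2, 80.5 and 99.6 CPM. No IF mouse came near the AL range. The ratio of means was 5.43 and the log2 fold change 2.38 ± 0.18. In liver the AL mice were widely spread, from 23.0 to 217 CPM with a median of 86.3, and the IF mice lay between 27.1 and 76.2 CPM with a median of 37.5. Liver groups overlapped, since AL mouse 3 had less than any IF mouse, while 5 other AL mice were above the highest IF mouse. The liver log2 fold change was -1.41 ± 0.36. In cortex, 7 of 8 IF mice lay above all AL mice, with medians of 23.9 CPM in AL and 31.0035 CPM in IF mice and a log2 fold change of 0.37 ± 0.07.

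For mice 25-40, Arrdc3 ranges of the diets overlapped in each tissue. Medians in AL and IF mice were 159 and 150 CPM in liver, 19.4 and 22.4 CPM in muscle, and 25.5 and 25.6 CPM in cortex. Liver was the tissue richest in Arrdc3 in AL mice of both sets and in IF mice 33-40. In IF mice 9-16 muscle came first, at a mean of 76.5 CPM against 41.9 CPM in liver, with overlapping ranges. Which tissue came first was the same after TMM scaling in all 4 groups. Cortex stood above muscle in CPM in the other 3 groups but below it after TMM scaling.

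Arrdc2, an alpha-arrestin whose cargo is less well known, had the widest diet difference of the 5 genes. In muscle of mice 1-16 its lowest, median and highest values were 7.36, 10.4 and 20.8 CPM in AL mice and 43.1, 185 and 223 CPM in IF mice. The groups were far apart, with the lowest IF mouse above the highest AL mouse. Mean levels of 11.4 and 163 CPM gave a ratio of 14.3, which stayed between 13.6 and 16.3 when any 1 library was left out, and the log2 fold change was 3.78 ± 0.35. Of the genes tested there, 0.0466% had a larger absolute log2 fold change, against 0.487% for Arrdc2 in cortex and 19.6% in liver of the same mice. The gene was chosen from these values, so nothing is read from its rank. Cortex showed a smaller difference in the same direction, from 11.8 to 17.1 CPM in AL mice (median 14.1) to 17.6 to 47.9 CPM in IF mice (median 38.02). The cortex groups did not overlap, but IF mouse 10 was only just above the AL range. The log2 fold change in cortex was 1.27 ± 0.20.

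Liver Arrdc2 was less clear-cut. AL mice had 32.1 to 58.1 CPM (median 44.0) and IF mice 29.7 to 223 CPM (median 79.2). Of the 8 IF mice, 7 were above all AL mice and IF mouse 10 was below them all. The ratio of means was 2.08, or 1.66 without IF mouse 13, and the log2 fold change was 0.94 ± 0.28. In mice 25-40 muscle again had the widest difference, with medians of 31.2 CPM in AL and 48.9 CPM in IF mice, yet these groups overlapped and the log2 fold change was 1.05 ± 0.46. Liver medians there were 49.1 and 53.1 CPM, and cortex medians 20.1 and 20.5 CPM.

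Arrdc2 muscle levels also differed between the AL groups of the sets, at a mean of 11.4 CPM in mice 1-8 and 38.3 CPM in mice 25-32, with overlapping ranges. AL mice had more Arrdc2 in liver than in cortex or muscle under both scalings, and the order of cortex and muscle in AL mice 1-8 was turned round by TMM scaling. In IF mice of both sets, muscle came first by mean under both scalings, its range overlapping that of liver.

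Arrdc1, which recruits Tsg101 to the plasma membrane in the budding of small vesicles, was higher under IF in liver and close between the diets in muscle and cortex of mice 1-16. Liver of mice 1-16 had 9.34, 11.3 and 18.3 CPM as lowest, median and highest in AL mice and 13.1, 18.5 and 29.7 CPM in IF mice. These groups overlapped, with 4 of 8 IF mice above all AL mice, and the log2 fold change was 0.59 ± 0.14. Muscle and cortex ranges overlapped, at log2 fold changes of 0.01 ± 0.10 and 0.04 ± 0.09. In mice 25-40 the largest absolute log2 fold change of Arrdc1 was 0.12 ± 0.26, in muscle. Muscle was the tissue with the least Arrdc1 in all 4 groups under both scalings, and the order of cortex and liver depended on the scaling in 3 of them.

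**Figure D1:**
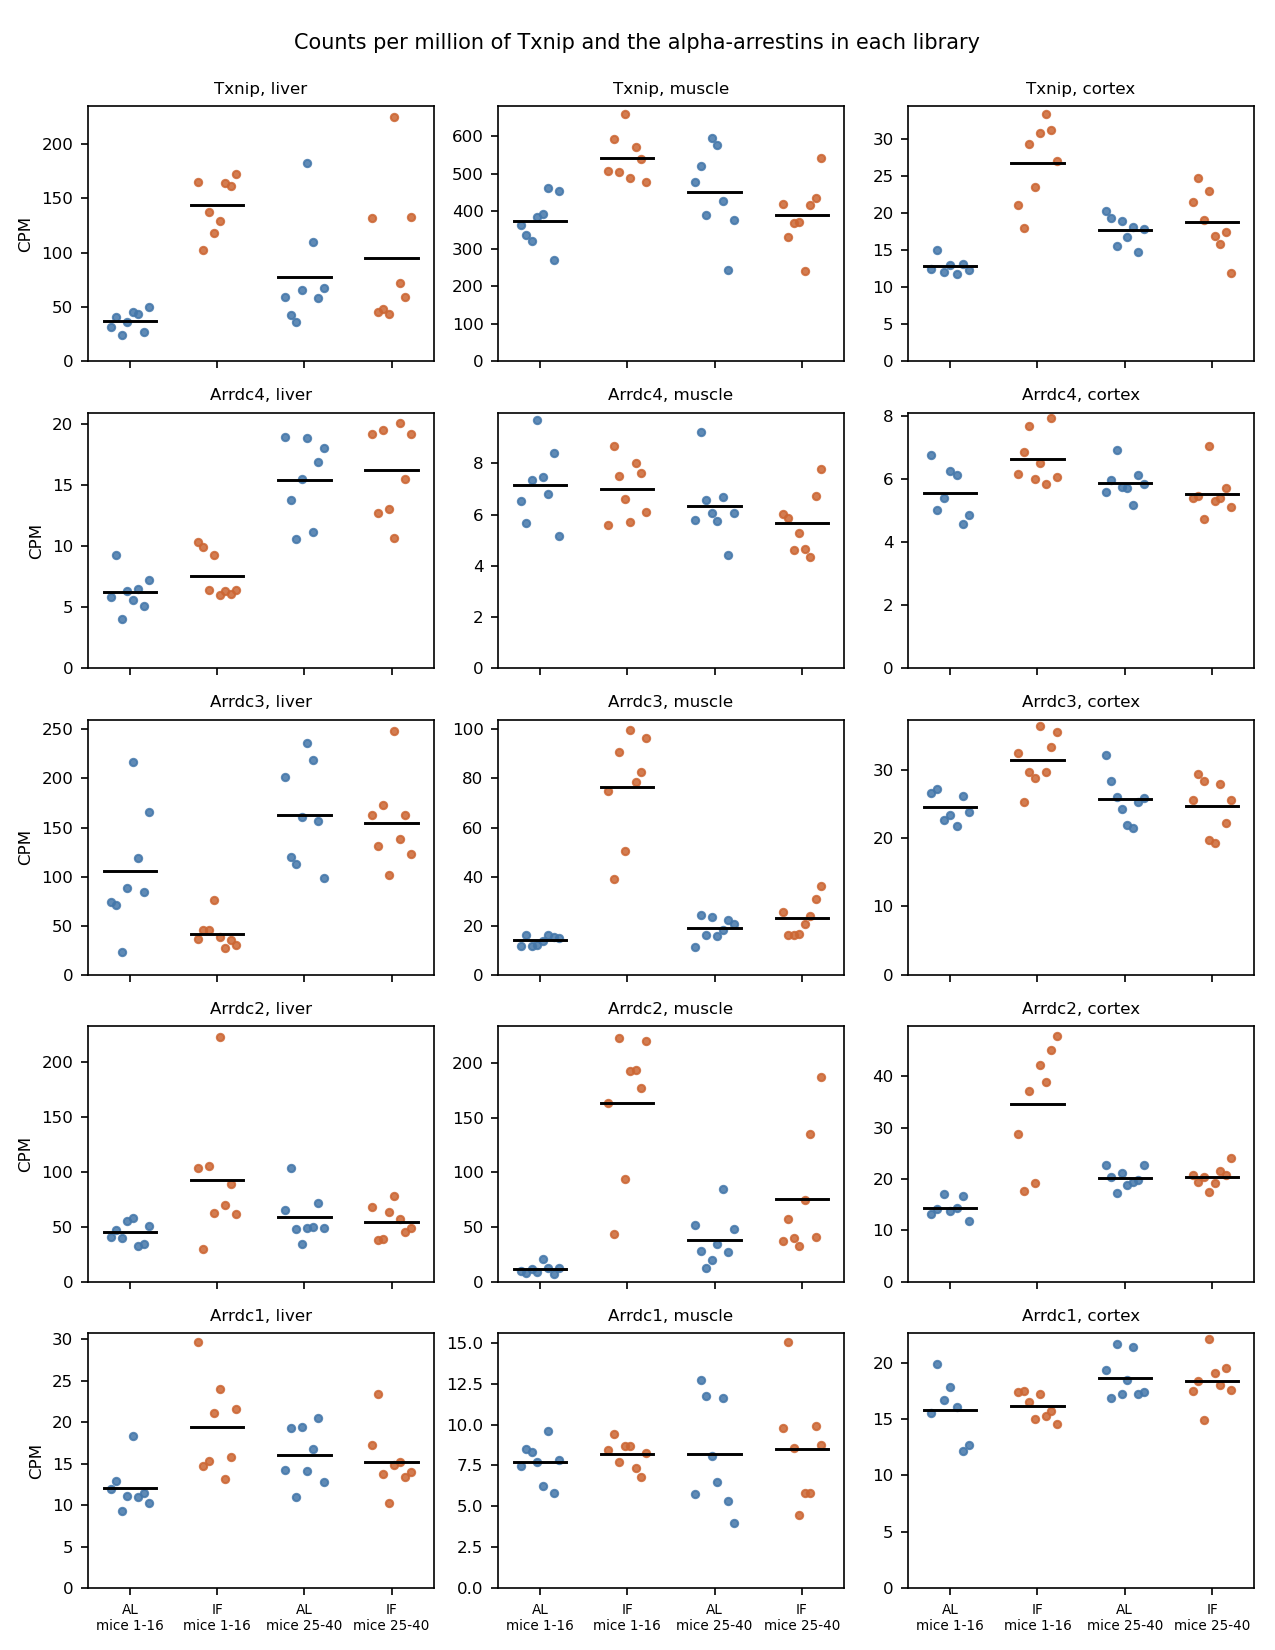
CPM of the 5 genes in each library, 1 panel per gene and tissue, with AL in blue, IF in orange and black lines at group means. In mice 1-16 the groups do not overlap for Txnip in any tissue, for Arrdc3 in muscle and for Arrdc2 in muscle and cortex, where it reached 163 CPM on average in IF muscle.

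Per kilobase of gene length, the scale on which genes can be set side by side, Txnip led muscle in every group. It stood at a mean of 119 CPM per kilobase in AL mice 1-8, with Arrdc2 next at 3.52, and at 174 in IF mice 9-16, with Arrdc2 next at 50.5. In liver of AL mice 1-8 Arrdc3 (16.8 CPM per kilobase), Arrdc2 (13.8) and Txnip (12.02) overlapped at the top, and in IF mice Txnip (46.0) and Arrdc2 (28.8) came first, with overlapping ranges. Cortex had the flattest profile. In mice 1-16 Arrdc1 came first there at 6.31 CPM per kilobase in AL mice, and Arrdc2 at 10.7 in IF mice. For mice 25-40 Arrdc1 came first in cortex, at 7.44 in AL and 7.32 in IF mice. The first gene overlapped the next in range in each cortex group. Arrdc4 was last in all 12 combinations of tissue, diet and set. Arrdc5, the remaining alpha-arrestin of the mouse, was at 0 in all liver libraries and reached at most 0.494 CPM in muscle.

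Across all genes, edgeR called 7234 of 16204 (44.6%) changed in liver of mice 1-16, 3463 of 15025 (23.0%) in muscle and 1332 of 18462 (7.21%) in cortex, at a Benjamini-Hochberg adjusted p below 0.05. The cortex count depended on the fit, with 498 genes without AL mouse 2 and IF mouse 10 and 2259 by DESeq2, so the share of 7.21% used below is that of the main fit alone. All 5 members passed the filter on low counts in each comparison. In liver 4 of the 5 were called (Txnip, Arrdc2 and Arrdc1 higher, Arrdc3 lower), and in muscle and cortex 3 each (Txnip, Arrdc3 and Arrdc2 higher). Because these contrasts were used to choose the genes, nothing is read from those counts. Groups without overlap in CPM made up 14.6% of the genes tested in liver, 4.17% in muscle and 1.01% in cortex, and 1, 3 and 2 of the 5 members.

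The same comparisons gave hardly any calls by edgeR in mice 25-40. edgeR called 0 of 15938 genes (0%) in liver, with 919 at an unadjusted p below 0.05 and 6 called by DESeq2. In muscle edgeR called 1 of 15308 genes (0.00653%), and in cortex 2 of 18403 (0.0109%). DESeq2 called more there, 55 higher and 36 lower in muscle, and 32 higher and 41 lower in cortex. None of the 5 members was called by edgeR or by DESeq2 in any tissue of mice 25-40. At an unadjusted p below 0.05 the member counts were 0, 1 and 0 in liver, muscle and cortex. The counts over all genes were 919 of 15938, 1644 of 15308 and 2069 of 18403. Groups without overlap made up 0.0188%, 0.0915% and 0.0435% of genes in the 3 tissues, and 0 of the 5 members in each.

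**Figure D2:**
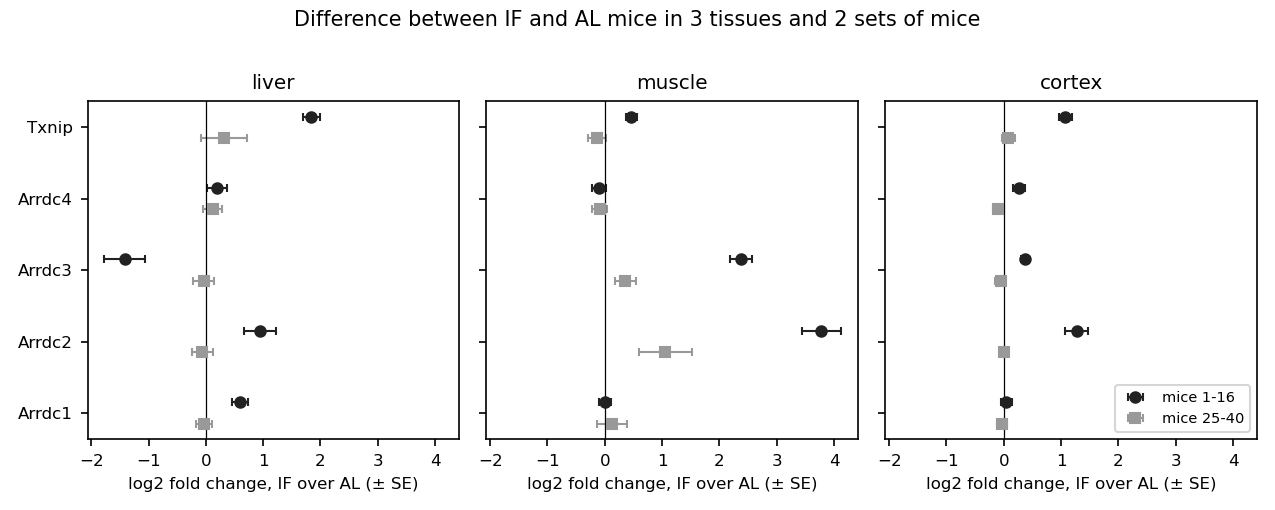
Fitted log2 fold change of IF over AL with its standard error for each gene, by tissue, in mice 1-16 (black circles) and mice 25-40 (grey squares). The largest value is that of Arrdc2 in muscle of mice 1-16, 3.78 ± 0.35, and Arrdc3 is below 0 in liver and above 0 in muscle of those mice.

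Differences between the sets of mice were fitted as an interaction of set and diet, and since the same libraries chose the members these too are a description. For Txnip the log2 fold change was higher in mice 1-16 than in mice 25-40 by 1.49 ± 0.44 in liver, 0.58 ± 0.19 in muscle and 0.99 ± 0.16 in cortex. Arrdc2 differed by 0.97 ± 0.34, 2.70 ± 0.57 and 1.26 ± 0.20 in the same order. Arrdc3 had values of -1.41 ± 0.40, 2.01 ± 0.27 and 0.42 ± 0.12, so the sets differed in opposite directions in liver and muscle. Arrdc1 differed by 0.58 ± 0.20 in liver, and Arrdc4 by 0.05 ± 0.24 in liver, -0.03 ± 0.18 in muscle and 0.36 ± 0.14 in cortex. The interaction was called for 4184 of 17658 genes (23.7%) in liver, 2314 of 16346 (14.2%) in muscle and 397 of 19547 (2.03%) in cortex, and for 4, 3 and 2 of the members, from which nothing is read.

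Between the 3 tissues of the same mice, Arrdc3 diverged most. Its log2 fold change in mice 1-16 was 3.71 higher in muscle than in liver, and 1.71 higher in cortex than in liver. Arrdc2 was 2.91 higher in muscle than in liver and 0.45 higher in cortex than in liver. Txnip ran the other way, with muscle 1.32 and cortex 0.77 below liver (log2 differences of -1.32 and -0.77). For Arrdc1 the differences from liver were -0.51 in muscle and -0.48 in cortex. The interaction of tissue and diet was called for 7346 of 21608 genes (34%) and for 4 of the members in mice 1-16. In mice 25-40 edgeR called 0 of 21292 genes (0%), with 1732 at an unadjusted p below 0.05, and 0 of the 5 members, with 1 at an unadjusted p below 0.05. DESeq2 was not run on this interaction.

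Some mice ranked alike in several tissues, though not for every gene. IF mouse 10 had the least Arrdc2 of the 8 IF mice in all 3 tissues, at 29.7 CPM in liver, 43.1 in muscle and 17.6 in cortex. IF mouse 12 had the next lowest Arrdc2 in muscle (93.4 CPM) and cortex (19.1 CPM). Mouse 10 was also lowest of the IF mice for Arrdc3 in muscle and cortex, at 39.2 and 25.2 CPM, and for Txnip in liver and cortex, at 102 and 18.0 CPM. Liver Arrdc3 went the other way, with mice 12 and 10 the highest of the IF mice at 76.2 and 45.95 CPM. In muscle, by contrast, mice 10 and 12 had the most Txnip of their group, at 591 and 658 CPM. Among AL mice, mouse 5 had the most Arrdc3 in liver (217 CPM) and the most Arrdc2 in liver and muscle (58.1 and 20.8 CPM), but ranked in the middle for Arrdc3 in muscle and for Arrdc2 and Arrdc3 in cortex. Samples of the same animal share its physiology and time of death, and how these enter the ranks was not tested.

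**Figure D3:**
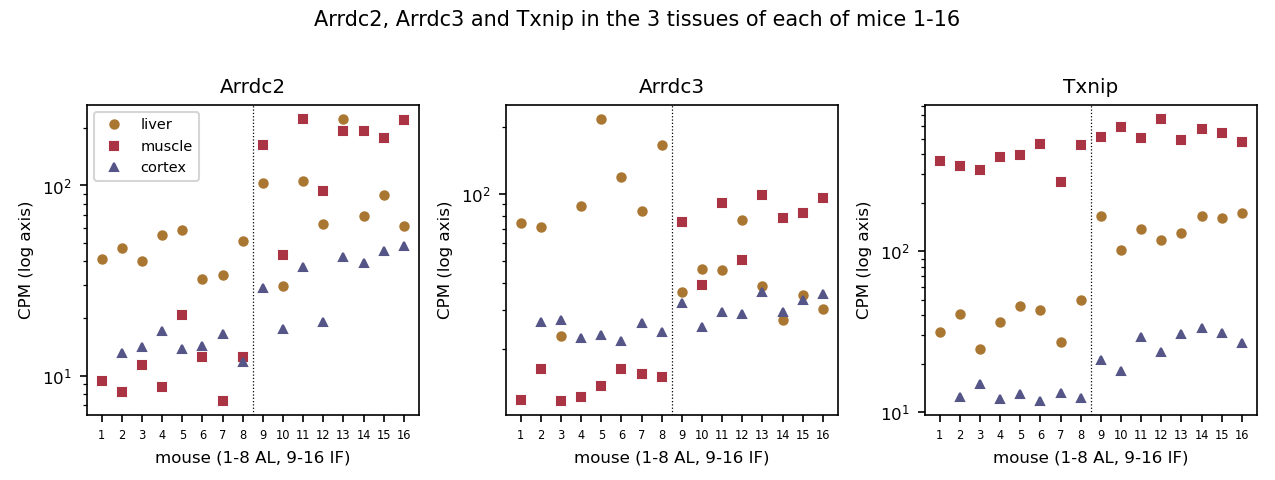
CPM on a log axis of Arrdc2, Arrdc3 and Txnip in liver (circles), muscle (squares) and cortex (triangles) of mice 1-16, with a dotted line between AL mice 1-8 and IF mice 9-16. IF mouse 10 is lowest of the IF mice for Arrdc2 in all 3 tissues, at 29.7, 43.1 and 17.6 CPM.

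Of the cell type markers tested in mice 1-16, 13 of 31 were called in liver, 11 of 33 in muscle and 7 of 34 in cortex, against 44.6%, 23.0% and 7.21% of all genes, so in liver their share was no higher than that of all genes. In a tissue homogenate, fewer cells of a type and less RNA per cell cannot be told apart. The 6 adipocyte markers summed in muscle to a mean of 135 CPM in AL mice and 868 CPM in IF mice, none was at 0, the most abundant was Cfd, and 5 of the 6 rose. Their sums were highest in IF mice 12 and 10, at 1963 and 1473 CPM, the same animals that had the least Arrdc2 in muscle. Without these 2 mice, an alternative chosen after seeing the data, the muscle log2 fold changes were 4.04 ± 0.21 for Arrdc2, 2.57 ± 0.09 for Arrdc3 and 0.40 ± 0.10 for Txnip. The adipocyte sums of the 6 remaining IF mice, 122 to 1022 CPM, still reached above the 33.8 to 352 CPM of the AL mice, so the part of adipocytes in these differences was not tested.

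Other markers called in muscle of mice 1-16 were 2 of 5 of myofibres, which fell (sums of 133258 CPM in AL and 129140 CPM in IF mice, led by Acta1). Endothelial markers led by Cdh5 summed to 157 and 164 CPM, and 1 of 5 fell. For macrophages and leukocytes, led by Csf1r, the sums were 17.7 and 14.1 CPM and 1 of 4 tested fell. The astrocyte list, led in muscle by the water channel gene Aqp4, summed to 18.1 and 28.8 CPM, and 2 of 3 tested rose.

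The 5 erythrocyte markers in liver summed to 577 CPM in AL mice and 2576 CPM in IF mice, and Hba-a1 was the most abundant. Of these 3 of 5 rose, and none was at 0. IF mouse 9 had the highest sum, 6879 CPM, followed by IF mouse 10 with 4344 CPM. Leaving both out, again an alternative chosen after seeing the data, gave liver log2 fold changes of 1.88 ± 0.15 for Txnip, -1.41 ± 0.42 for Arrdc3, 1.08 ± 0.25 for Arrdc2 and 0.53 ± 0.14 for Arrdc1. Endothelial markers in liver, led by Kdr, summed to 57.7 CPM in AL and 91.8 CPM in IF mice, with 2 of 5 rising. The erythrocyte sums of the 6 other IF mice, 667 to 3033 CPM, still reached above the 362 to 956 CPM of the AL mice.

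Hepatocyte markers summed to 58914 and 51062 CPM in liver of AL and IF mice, and 1 of 5 fell. Macrophage and leukocyte markers led by the Kupffer cell gene Clec4f summed to 144 and 196 CPM, and 1 of 5 rose. Liver adipocyte markers were low, at 28.2 and 9.58 CPM, and 1 of 2 tested fell. The astrocyte list summed to 751 and 993 CPM, led by Aldh1l1, which hepatocytes express too, and 1 of 3 tested rose and 1 fell. Neuron markers summed to 5.05 and 7.63 CPM (1 of 2 tested rose) and oligodendrocyte markers to 9.06 and 7.08 CPM (1 of 3 tested rose and 1 fell). The part of these cell types in the liver differences was not tested.

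In cortex the 4 oligodendrocyte markers, led by Mbp, summed to 4592 CPM in AL mice and 6558 CPM in IF mice, and 3 of 4 rose. The 5 endothelial markers, led by Cldn5, summed to 155 and 121 CPM, and 1 of 5 fell. Astrocyte markers led by Slc1a3 summed to 542 and 490 CPM (1 of 4 fell), macrophage and leukocyte markers led by Csf1r to 99.7 and 98.6 CPM (1 of 4 tested fell), adipocyte markers led by Retn to 1.99 and 1.20 CPM (the 1 tested fell), and neuron markers to 6070 and 6085 CPM. Their part in the cortex differences of Txnip, Arrdc2 and Arrdc3 was not tested. In mice 25-40 no marker was called by edgeR in any tissue. At an unadjusted p below 0.05 there were 0 of 30 markers in liver, 7 of 31 in muscle and 5 of 34 in cortex. The counts over all genes were 919 of 15938, 1644 of 15308 and 2069 of 18403. DESeq2 called 0, 1 and 0 of the markers. Of all those genes it called 6 higher and 0 lower in liver, 55 and 36 in muscle, and 32 and 41 in cortex.

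Companion lists of genes are given with adjusted p-values from edgeR's quasi-likelihood test. Because the lists, like the members, were picked with values of these libraries in view, their counts, shares and p-values describe these libraries and are not independent evidence of a direction. Of all genes tested in mice 1-16, 44.6% were called in liver, 23.0% in muscle and 7.21% in cortex, and each list's share is set beside these. The first holds MondoA (Mlxip), ChREBP (Mlxipl), their partner Mlx and known targets. In liver of mice 1-16, 5 of its 12 genes rose and 3 fell (66.7% called, against 44.6% of all genes), with a median log2 fold change of 0.10 against 0.06 over all genes. Mlxip rose by 1.18 ± 0.16 (adjusted p = 1.43e-06, above the AL mean in 8 of 8 IF mice) while Mlx fell by 0.97 ± 0.14 (adjusted p = 3.65e-06, below it in 8 of 8). Pklr, the liver pyruvate kinase and a textbook ChREBP target, had a log2 fold change of -1.46 ± 0.32 (adjusted p = 0.00151, below the AL mean in 8 of 8). Mlxipl, by far the most abundant of the 3 factors in liver at 1207 CPM in AL and 1174 CPM in IF mice, was not called there (-0.14 ± 0.16) but fell in muscle (-0.20 ± 0.06, adjusted p = 0.0241, below the AL mean in 7 of 8). The transcriptional repressors Klf10 and Klf11 rose in liver and in muscle, by 1.14 ± 0.11 and 0.97 ± 0.14 in muscle (adjusted p = 2.61e-07 and 4.65e-05, each above the AL mean in 8 of 8 IF mice). In muscle 2 of 7 tested genes rose and 1 fell (42.9%, against 23.0% of all genes), and in cortex edgeR and DESeq2 called 0 of 8. At an unadjusted p below 0.05 there were 4 of 8 in cortex, against 4400 of 18462 of all genes.

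The thioredoxin system, which Txnip inhibits by binding reduced thioredoxin, had 6 of 11 genes rising and 2 falling in liver of mice 1-16 (72.7%, against 44.6% of all genes), with a median log2 fold change of 0.46. Thioredoxin itself, Txn1, fell from a mean of 361 to 224 CPM (-0.79 ± 0.14, adjusted p = 9.42e-05, below the AL mean in 8 of 8 IF mice). Nucleoredoxin (Nxn) rose by 1.21 ± 0.21 and peroxiredoxin Prdx1 by 0.72 ± 0.16 (adjusted p = 4.76e-05 and 0.000849, each in 8 of 8). Thioredoxin reductase Txnrd1 fell in liver (-0.38 ± 0.10) and rose in muscle (0.30 ± 0.07), at adjusted p = 0.0037 and 0.00307 and in 8 of 8 IF mice each. Txnrd3 rose in both, by 0.73 ± 0.22 and 0.31 ± 0.10. Muscle had 3 of 11 rising and 1 falling (36.4%, against 23.0%) with a median of 0.02, and its Txn1 was not called (0.02 ± 0.06). In cortex edgeR and DESeq2 called 0 of 11, with 1 at an unadjusted p below 0.05, against 4400 of 18462 of all genes.

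Among the NEDD4-family ligases that alpha-arrestins recruit, Nedd4 fell in liver (-0.57 ± 0.09, adjusted p = 2.16e-05, below the AL mean in 8 of 8 IF mice) and rose in muscle (0.32 ± 0.05, adjusted p = 0.000139, above it in 8 of 8). Itch and Hecw2 rose in liver, by 0.33 ± 0.11 and 1.24 ± 0.35. Smurf1 rose in cortex by 0.34 ± 0.07 (adjusted p = 0.0111, in 7 of 8). By count, 2 of 8 rose and 1 fell in liver, 1 of 8 rose and 1 fell in muscle, and 1 of 9 rose in cortex, shares of 37.5%, 25% and 11.1% called against the 44.6%, 23.0% and 7.21% of all genes. In cortex 4 of 9 had an unadjusted p below 0.05, against 4400 of 18462 of all genes. DESeq2 called 4 of 9 there, against 2259 of 18462.

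Known cargo and partners of the members formed a list of 13. Slc2a1, the glucose transporter GLUT1 that Txnip brings into the cell, rose in cortex from 92.1 to 142 CPM (0.64 ± 0.10, adjusted p = 0.00193, 8 of 8 IF mice above the AL mean). Slc2a4, the insulin-responsive transporter GLUT4, fell in muscle from 634 to 550 CPM (-0.28 ± 0.06, adjusted p = 0.00147, 8 of 8 below). The beta-3 adrenergic receptor Adrb3, expressed mainly by adipocytes, fell in liver (-1.53 ± 0.32) and rose in muscle (3.23 ± 0.78), at adjusted p = 0.00106 and 0.00826. Its muscle mean of 1.51 CPM in AL and 15.2 CPM in IF mice stands beside the adipocyte sums given above. Ddit4, an inhibitor of mTORC1 that binds Txnip, rose in muscle by 2.88 ± 0.31 and in cortex by 0.68 ± 0.12 (adjusted p = 1.41e-05 and 0.00559, 8 of 8 above in each). Integrin beta 4 (Itgb4) rose by 1.26 ± 0.38 in liver and 0.34 ± 0.07 in cortex. Of this list edgeR called 2 of 13 rising and 1 falling in liver (median -0.04), and 4 of 11 and 1 in muscle (median 0.08). In cortex 4 of 13 rose and 0 fell (median 0.24). These are shares of 23.1%, 45.5% and 30.8%, against 44.6%, 23.0% and 7.21% of all genes. In cortex 6 of 13 had an unadjusted p below 0.05, against 4400 of 18462 of all genes. DESeq2 called 4 of 13 there, and of all 18462 genes it called 1190 higher and 1069 lower.

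Of the other genes with an arrestin fold, Arrb1 (beta-arrestin 1), which turns off and internalises G protein-coupled receptors, rose in liver (0.98 ± 0.12) and cortex (0.30 ± 0.08) and fell in muscle (-0.39 ± 0.09). The adjusted p-values were 4.54e-07, 0.0218 and 0.00473, with 8, 8 and 7 of 8 IF mice on that side of the AL mean. Vps26a, a retromer subunit, rose in liver by 0.31 ± 0.11 (adjusted p = 0.0175, 8 of 8 above). Called genes numbered 2 of 5 in liver, 1 of 5 in muscle and 1 of 7 in cortex, with medians of 0.16, -0.08 and 0.10. Their shares of 40%, 20% and 14.3% stand against 44.6%, 23.0% and 7.21% of all genes.

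Of the glucocorticoid receptor list, 6 of 11 genes rose in liver, 7 of 10 in muscle and 4 of 11 in cortex of mice 1-16, and the others were not called. The shares called were 54.5%, 70% and 36.4%, against 44.6%, 23.0% and 7.21% of all genes. The medians were 0.52, 0.60 and 0.50, against 0.06, 0.01 and 0.00 over all genes. Sgk1, a kinase induced by glucocorticoids, rose in each: by 1.06 ± 0.18 in liver, 1.27 ± 0.18 in muscle and 1.54 ± 0.21 in cortex (adjusted p = 2.94e-05, 0.000134 and 0.00172, 8 of 8 IF mice above in each). Per1, a clock gene that is also a glucocorticoid target, rose by 4.53 ± 0.29 in liver and 2.04 ± 0.20 in muscle but was not called in cortex (0.10 ± 0.20). Fkbp5 rose by 2.46 ± 0.32 in liver and 0.74 ± 0.12 in cortex and was at -0.12 ± 0.25 in muscle. Zbtb16 rose in liver by 1.79 ± 0.31 (adjusted p = 5.95e-05, 7 of 8 above). The receptor gene Nr3c1 had log2 fold changes of -0.17 ± 0.12, 0.27 ± 0.09 and -0.10 ± 0.09 in liver, muscle and cortex, and it was called in muscle.

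FoxO factors and their targets, which insulin holds down, had 7 of 12 genes rising and 1 falling in liver, 9 of 13 rising and 2 falling in muscle, and 1 of 12 rising in cortex (66.7%, 84.6% and 8.33%, against 44.6%, 23.0% and 7.21% of all genes). Medians were 0.54, 0.69 and 0.04. Foxo1 rose by 1.57 ± 0.12 in liver and 0.87 ± 0.21 in muscle (adjusted p = 2.17e-10 and 0.00806, 8 of 8 above in each). Pdk4, which shuts glucose carbon out of the citric acid cycle, rose by 1.75 ± 0.18 and 2.58 ± 0.23 (adjusted p = 3.03e-08 and 1.99e-06, 8 of 8 in each), in muscle from 207 to 1302 CPM. Igfbp1, secreted by liver, rose there by 3.23 ± 0.51. Gadd45a fell in liver (-1.31 ± 0.25) and rose in muscle (1.16 ± 0.14).

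In mice 25-40, edgeR called 0 genes of the 7 lists in any tissue. At an unadjusted p below 0.05 there were 6 of 74 in liver, 9 of 66 in muscle and 11 of 71 in cortex. The counts over all genes were 919 of 15938, 1644 of 15308 and 2069 of 18403. DESeq2 called 0, 3 and 0 of the listed genes. Of all those genes it called 6 higher and 0 lower in liver, 55 and 36 in muscle, and 32 and 41 in cortex. The difference between the sets was itself called for 25 of 75 listed genes in liver, 27 of 66 in muscle and 6 of 71 in cortex, and for 23.7%, 14.2% and 2.03% of all genes. For the glucocorticoid list the interaction was called for 4 of 12, 6 of 10 and 3 of 11 genes (33.3%, 60% and 27.3%), all higher in mice 1-16. For the FoxO list it was called for 8 of 13 in liver and 10 of 13 in muscle (61.5% and 76.9%). In cortex edgeR called it for 0 of 12, while 4 had an unadjusted p below 0.05, against 3007 of 19547 of all genes. DESeq2 was not run on these interactions.

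Likeness of pattern was measured as Pearson's r of log2 CPM over the 95 libraries, after the mean of each tissue and set was subtracted, among 10684 genes with at least 1 CPM on average in each tissue. The libraries of 1 mouse, and the diet groups, are shared by all points, so no p is given. Nearest to Txnip were Pnpla2, the triglyceride lipase ATGL (r = 0.77), the kinase gene Pim3 (0.74) and Angptl4, an inhibitor of lipoprotein lipase (0.74). Nearest to Arrdc2 were Tsc22d3, the glucocorticoid-induced leucine zipper (0.80), Ddit4 (0.77) and the nuclear receptor corepressor Nrip1 (0.73). Tsc22d3 rose in liver, muscle and cortex of mice 1-16, by 0.52 ± 0.14, 1.28 ± 0.13 and 0.93 ± 0.10.

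Nrip1 was also among the nearest genes to Arrdc3 (0.66), after Depp1 (0.74) and beside the translation initiation factor Eif4a2 (0.66). Arrdc1 was nearest to Npdc1 (0.71), Mfge8 (0.70) and Apobec3 (0.68). Arrdc4 had no close neighbour, the first being Glb1 at r = 0.46, then Txndc17 and Dctn3 at 0.45 each. Between members, r was 0.59 for Arrdc2 and Arrdc3, 0.37 for Txnip and Arrdc2 and 0.36 for Txnip and Arrdc1. It was 0.31 for Txnip and Arrdc4 and for Arrdc4 and Arrdc1, 0.11 for Arrdc2 and Arrdc1 and 0.06 for Txnip and Arrdc3. For Arrdc4 it was 0.02 with Arrdc3 and -0.01 with Arrdc2, and Arrdc3 and Arrdc1 were at -0.01. Txnip and Arrdc4, the pair with the shared glucose-sensing factors, had a lower r than Arrdc2 and Arrdc3. Diet means were not subtracted, so r also holds the diet differences, which were known when the members were chosen. The tissues were pooled as well, although Arrdc3 was lower under IF in liver and higher in muscle of the male mice. Whether the genes of either pair are regulated together was therefore not tested.

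Txnip (ENSMUSG00000038393) lies on the plus strand of GRCm39 at chr3:96465273-96469199, inside the span of Gm15441 (ENSMUSG00000074398), a long non-coding RNA gene on the minus strand at chr3:96463071-96474117. Those are the positions of the count table. In the GENCODE annotation the exons of the 2 genes share 928 bases, 29.3% of the exon bases of Txnip and 24.6% of those of Gm15441. Gm15441 is outside the lists and was chosen after its values were seen. Its liver values in mice 1-16 were 0.0491, 0.561 and 1.53 CPM as lowest, median and highest of the AL mice and 14.9, 25.9 and 66.8 CPM in IF mice. The groups were far apart, with a ratio of means of 52.0 and a log2 fold change of 5.64 ± 0.52.

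Muscle Gm15441 was low, with means of 0.656 and 1.42 CPM in AL and IF mice and overlapping ranges, and cortex had at most 0.407 CPM in mice 1-16. In liver of mice 25-40 the means were 1.60 and 1.46 CPM. The libraries are described as directional, although a kit that does not mark strand is named as well, and whether the strand was used in counting was not given in the sources used here, and neither was the handling of reads in shared bases. Reads of Txnip and Gm15441 in their shared exons therefore cannot be told apart. Arrdc3 also spans an antisense gene, 1700023H06Rik, but their exons share 0 bases. The other members overlap no gene in the table.

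Promoter sequences are shown for Txnip and Arrdc4, the pair known as targets of MondoA and ChREBP. Any link between their motifs and the diet differences was not tested. RefSeq windows of 250 bases before the start, from a table built on GRCm38.p6, matched all 5 members, with 7 windows in all. Each was placed on GRCm39 by its exact single match. The motifs searched on both strands were the E-box CACGTG, the carbohydrate response element (CACGNG and CNCGNG 5 bases apart), the forkhead motif GTAAACA, the glucocorticoid response element (AGAACA and TGTTCT 3 bases apart), the cAMP response element TGACGTCA and the CCAAT box. They occur in 6.02%, 0.280%, 3.17%, 0.00913%, 1.55% and 33.8% of 32851 promoter windows of the same length. The Txnip window is chr3:96465023-96465272, plus strand, where the GENCODE annotation has exons of Gm15441 and of Txnip, although the gene positions of the count table, given above, start Txnip just after the window. Arrdc4 has its window at chr7:68398987-68399236, minus strand, where the GENCODE annotation has an Arrdc4 exon. Both read 5′ to 3′ along the gene, and capitals mark the forkhead motif and then the carbohydrate response element in Txnip, and the E-box in Arrdc4.
Txnip: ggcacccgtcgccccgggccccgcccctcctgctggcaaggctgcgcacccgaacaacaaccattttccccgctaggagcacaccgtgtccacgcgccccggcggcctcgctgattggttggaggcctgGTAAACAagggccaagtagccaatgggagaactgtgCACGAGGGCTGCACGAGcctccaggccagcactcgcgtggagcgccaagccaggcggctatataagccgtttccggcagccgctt
Arrdc4: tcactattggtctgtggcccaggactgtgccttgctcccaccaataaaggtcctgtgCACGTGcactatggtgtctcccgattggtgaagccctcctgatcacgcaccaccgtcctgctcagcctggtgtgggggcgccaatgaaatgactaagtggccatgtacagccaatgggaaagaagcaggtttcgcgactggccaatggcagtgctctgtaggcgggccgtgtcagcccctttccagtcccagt
In Txnip the forkhead match lies at -121 to -115 and the carbohydrate response element at -85 to -69, counted from the RefSeq start, with CCAAT boxes at -137 to -133 and -102 to -98. Arrdc4 has its E-box at -193 to -188 and 6 CCAAT boxes. A match is a description of letters and not of a bound site.

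The window of Arrdc2 at chr8:71292365-71292614, minus strand, held 3 CCAAT boxes and none of the other 5 motifs, including the 3-base-spaced glucocorticoid response element. Arrdc3 had 3 windows, of which 2 overlap and hold the same CCAAT box, and none held another of the motifs. The Arrdc1 window at chr2:24825294-24825543, minus strand, held none of the 6 motifs. An absent match says only that these letters are not in this window.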

How the data were processed

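Poly-A RNA of liver, skeletal muscle and cerebral cortex from 32 mice was sequenced in 96 libraries, described as directional. The authors aligned read pairs to GRCm39 with HISAT2 2.0.5 and deposited a table of raw counts per gene made with featureCounts 1.5.0-p3. Whether strand was used in counting was not given in the sources used here. Libraries were grouped by tissue, diet and set of mice per the labels, and 95 were used, with library CAL1 left out because its Xist and Y-linked counts went against its label. The 5 genes and the companion lists were chosen with earlier results of these data known.

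From the counts, CPM was computed over each library's total. Diet contrasts were fitted in each tissue and set with edgeR 4.0.16 (R 4.3.3): filterByExpr defaults, TMM scaling, robust quasi-likelihood test, Benjamini-Hochberg adjustment over all genes tested, called at an adjusted p below 0.05. Interactions of set and diet were fitted in each tissue, and those of tissue and diet with mouse as a block. Standard errors are the absolute log2 fold change over the square root of F. Scripts were tested on simulated data. Alternatives were RLE size factors, DESeq2 1.42.0, no filter beyond 1 count, the replicate number as a block, AL mouse 2 and IF mouse 10 left out, CAL1 included, no mouse block, and CPM scaled by TMM factors.

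Named genes of a list are up to 4 that were called in at least 1 of 6 diet contrasts, ranked by the largest absolute log2 fold change, besides partners or regulators of a member named with any value: Nedd4, Itch, Mlxip, Mlxipl, Mlx, Nr3c1, Foxo1, Txn1, Txnrd1, Slc2a1, Slc2a4 and Arrdc5. For likeness, the 3 genes with the highest r are named for each member, from log2 CPM with a prior count of 2. Tables and figures were made with Python 3.11.15, pandas 2.3.3, numpy 2.4.6 and matplotlib 3.10.9.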

Additional observations from a re-analysis of the deposited data

Results flagged for a closer look

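A library far from the rest of its group was looked for in 60 groups of a member, tissue, diet and set, by the gap to its neighbour over the range. The limit used flags about 1 in 20 groups by chance where values are independent and normally distributed. Whether this rate holds for CPM was not tested, so the number of flags is not set against it. There were 6 flags, each for the highest library. In cortex they were Txnip in AL mouse 3 (15.03 CPM, next 13.1) and Arrdc4 in IF mouse 36 (7.02 CPM, next 5.71). In liver they were Arrdc3 in IF mouse 12 (76.2 CPM, next 46.0), Arrdc2 in IF mouse 13 (223 CPM, next 105) and Arrdc1 in AL mouse 5 (18.3 CPM, next 12.9). Muscle had Arrdc2 in AL mouse 5 (20.8 CPM, next 12.6).

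Differences between mice 1-16 and mice 25-40 are listed here where edgeR called the interaction of set and diet. The same libraries chose the members, so the list is a description and nothing is read from which values are on it. Arrdc3 in cortex, at 0.42, was not called and is left out. In liver the log2 differences were 1.49 for Txnip, -1.41 for Arrdc3, 0.97 for Arrdc2 and 0.58 for Arrdc1. They were 0.58 for Txnip, 2.01 for Arrdc3 and 2.70 for Arrdc2 in muscle, and 0.99 for Txnip and 1.26 for Arrdc2 in cortex. With the replicate number as a block, Arrdc2 in liver and Txnip in muscle were no longer called. The sets differ in labelled sex and may differ in age, length of the daily fast, time on the diet, hour of sampling and batch. These cannot be told apart here.

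Differences between tissues are listed in the same way, as a description, where the interaction of tissue and diet was called in mice 1-16. The largest log2 difference between any tissues was 1.32 for Txnip, 3.71 for Arrdc3, 2.91 for Arrdc2 and 0.51 for Arrdc1. Arrdc4, at 0.38, was not called. The cause of these differences was not tested.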

How the results depend on the processing

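Of the member values under the alternatives, 195 kept their direction and side of the threshold, 4 were weaker and 1 was reversed. Values of the interaction of tissue and diet, the largest difference between tissues, have no sign. For these only the side of the threshold was compared. The reversed value was Arrdc1 in muscle of mice 1-16, not called in the main fit, at -0.0284 without IF mice 10 and 12. That alternative was chosen after seeing the data. Of the counts of genes called, 30 stayed within 1.5 times and 10 moved, and the cause was not tested. DESeq2 called 6 genes in liver, 91 in muscle and 73 in cortex of mice 25-40, and 2259 in cortex of mice 1-16. Muscle of mice 25-40 had 5 with no filter beyond 1 count. The cortex of mice 1-16 had 498 without AL mouse 2 and IF mouse 10, where fewer libraries were used, and 294 with CAL1. The interaction of tissue and diet in mice 25-40 had 14 with no mouse block.

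Replicate numbers do not pair AL and IF libraries, which come from different animals. In each tissue of mice 1-16 and mice 25-40, 1 of 8 and 2 of 8 pairs correlated above 0.1 in liver, 2 of 8 and 4 of 8 in muscle, and 1 of 7 and 4 of 8 in cortex, and in no group did every library correlate best with its own number. With the number as a block, the cortex of mice 1-16 had 382 genes called and that of mice 25-40 had 0 in edgeR, with 2329 at an unadjusted p below 0.05. Under the block Arrdc3 was at -1.27 in liver and 0.35 in cortex of mice 1-16, and the differences between sets were 0.78 for Arrdc2 in liver and 0.59 for Txnip in muscle, no longer called. Of the CPM levels, 26 stayed within 1 SD after TMM scaling and 34 did not.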
